A study of Mus musculus with 16 samples.

Results

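The genes described here are Tnf, which encodes tumour necrosis factor (TNF), and 9 others that make its nearest relatives, receptors, releasing enzyme and adaptors. They were chosen by name, with earlier results of these data known, so their counts beside all genes are a description. Each is the only gene symbol of a probe set in the platform annotation. All 10 have exactly 1 such probe set among the 19938 genes tested. The arrays were Affymetrix Mouse Gene 1.0 ST, with RNA of the whole brain from males aged 8 weeks. The 16 arrays fall into 4 groups of 4. The groups are mice labelled TNF knockout 24 h after pMCAO (a stroke model in which the middle cerebral artery is blocked for good), naive mice labelled TNF knockout, C57BL/6 mice 24 h after pMCAO, and naive C57BL/6 mice. No group is labelled as sham-operated, and the effects of surgery and occlusion cannot be told apart. The labels name the knockout only as TNFko, without the allele, the cells that carry it or its background strain, and they do not say whether each array came from a separate mouse. The p-values therefore measure the spread between these samples.

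TNF is made as a membrane protein, mainly by microglia and macrophages in the injured brain, and the protease encoded by Adam17 cuts it loose. Soluble TNF acts mainly through the receptor encoded by Tnfrsf1a, whose death domain recruits the adaptor encoded by Tradd, while membrane TNF also engages the receptor encoded by Tnfrsf1b. The adaptors encoded by Traf1 and Traf2 pass the signal on towards NF-kB and stress kinases. Lta and Ltb, the lymphotoxin genes, lie next to Tnf in the major histocompatibility complex, and Tnfrsf12a encodes the related receptor for the cytokine TWEAK.

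The promoters of Tnf, Ltb and Tnfrsf1a are shown as the stretches of 250 bases before the RefSeq start, since Tnf is the gene that separates the genotype labels, Tnfrsf1a the one that rose after stroke under both labels, and Ltb the one with a kappaB match. The sequences are from RefSeq on build GRCm38.p6, 5′ to 3′ along each gene, at chr17:35202008-35202257 (minus strand), chr17:35194257-35194506 (plus strand) and chr6:125349473-125349722 (plus strand). Capitals mark a match to the kappaB consensus or to TATAAA on either strand, and no 2 matches in the members overlap.
Tnf: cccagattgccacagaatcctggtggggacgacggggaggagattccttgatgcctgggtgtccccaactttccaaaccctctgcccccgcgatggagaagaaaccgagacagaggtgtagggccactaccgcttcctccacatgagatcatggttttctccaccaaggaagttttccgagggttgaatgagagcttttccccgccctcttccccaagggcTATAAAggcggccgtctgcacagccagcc
Ltb: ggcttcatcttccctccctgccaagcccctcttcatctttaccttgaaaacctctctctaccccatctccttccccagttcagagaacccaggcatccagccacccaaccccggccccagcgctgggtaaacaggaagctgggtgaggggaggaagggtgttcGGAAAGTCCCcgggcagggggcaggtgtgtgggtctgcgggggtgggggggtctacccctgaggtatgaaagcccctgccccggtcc
Tnfrsf1a: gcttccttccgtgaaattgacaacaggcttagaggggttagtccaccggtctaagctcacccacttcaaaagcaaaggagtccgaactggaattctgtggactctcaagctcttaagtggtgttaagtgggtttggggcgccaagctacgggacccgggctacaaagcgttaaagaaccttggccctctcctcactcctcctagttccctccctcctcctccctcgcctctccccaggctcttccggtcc
In the Tnf promoter TATAAA lies 29 to 24 bases before the start. In Ltb the kappaB match is GGAAAGTCCC, on the opposite strand, 87 to 78 bases before the start. Of the 9 members with a sequence, 1 had a kappaB match and 2 had TATAAA, against 7.25% and 12.4% of all 32851 RefSeq promoter stretches of this length. A match describes letters only.

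The values are log2 probe set summaries, as mean ± SD (n = 4 arrays), and each difference carries its SE from limma with p-values adjusted over all 19938 genes (threshold 0.05). Array medians were 6.01 to 6.05, and correlations between arrays of 1 group were 0.991 to 0.996. The sample names carry the prefix KL42 in all C57BL/6 arrays, and KL76 or KL82 in those labelled TNF knockout (3 naive and 1 stroke array, and 1 naive and 3 stroke arrays). The labels do not explain the prefix, and prefix and genotype cannot be told apart. The mean over 10 neuron markers such as Snap25 and Syt1 was 10.88 to 10.94 after stroke and 10.96 to 11.003 in naive mice with the knockout label, and 10.84 to 10.90 after stroke and 10.90 to 10.98 in naive mice in C57BL/6. Tnf itself read higher under the knockout label, as described next, so those groups are called arrays labelled TNF knockout.

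Tnf was higher in every array labelled TNF knockout than in every C57BL/6 array. After stroke, the arrays labelled TNF knockout stood, in ascending order, at 6.60, 6.75, 6.88 and 6.99, against 5.28, 5.64, 5.67 and 5.68 in C57BL/6 stroke arrays. In naive mice they stood at 6.14, 6.46, 6.47 and 6.58 with the knockout label, against 5.01, 5.08, 5.41 and 5.72 in C57BL/6. The lowest array with the knockout label, at 6.14, thus lay above the highest C57BL/6 array, at 5.72. The differences came to 1.24 ± 0.14 after stroke (95% interval 0.94 to 1.53; 2.36-fold; limma, adjusted p = 0.0001) and 1.11 ± 0.14 in naive mice (0.81 to 1.40; 2.15-fold; limma, adjusted p = 0.000558). By size of increase Tnf ranked 4 of 19938 genes after stroke and 2 in naive mice. It was the only member to pass in either comparison, 1 of 10 each time, where 0.166% of all genes were called higher after stroke and 0.221% in naive mice. All C57BL/6 values of Tnf lay below the array medians. Whether they stood above background cannot be read from these data, so the folds are those of the deposited values. The labels do not say which part of Tnf was deleted or whether the probe set covers it. A probe set outside the deletion checks nothing.

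**Figure D1:**
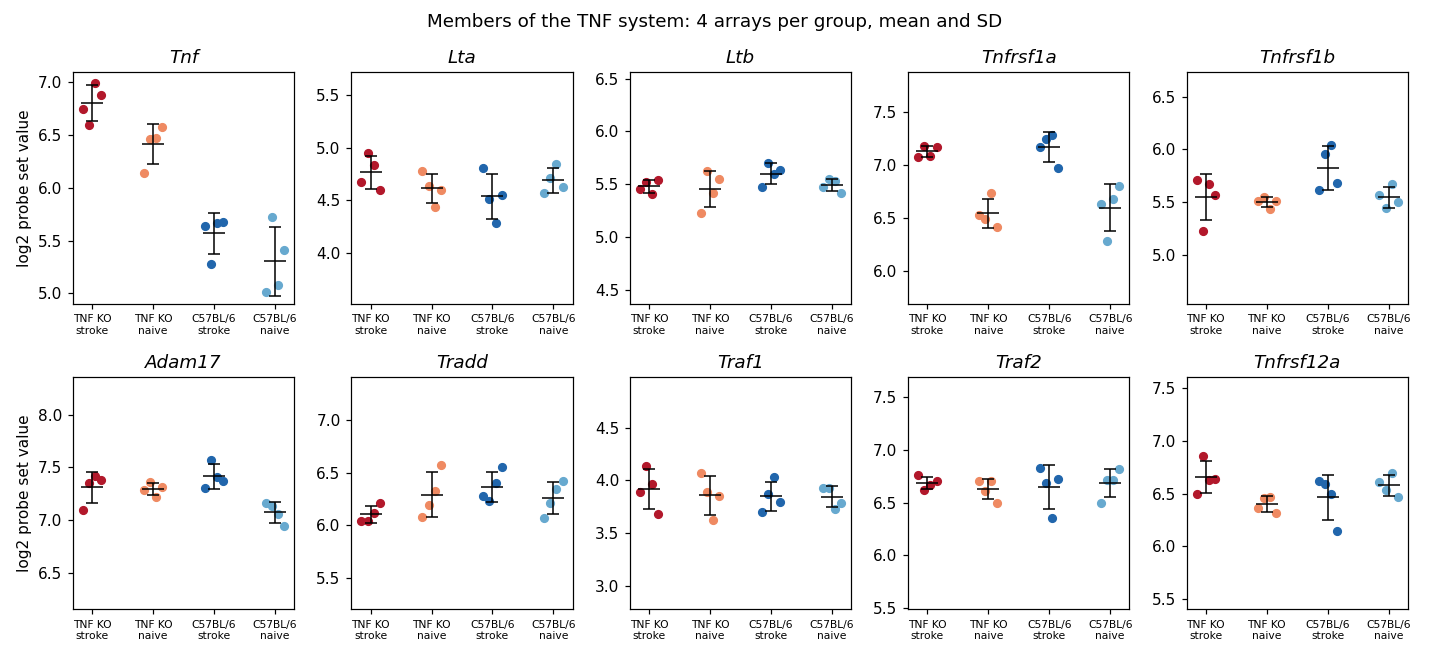
Values of the 10 members by group; the y axes give log2 probe set values over the same span in each panel, points are arrays, and bars are the mean and SD (n = 4). Tnf separates the genotype labels, with 6.14 as the lowest value under the knockout label and 5.72 as the highest in C57BL/6, and Tnfrsf1a separates stroke from naive.

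In the order of its group means Tnf ran from 6.81 ± 0.17 in stroke and 6.41 ± 0.19 in naive arrays labelled TNF knockout to 5.57 ± 0.19 in stroke and 5.31 ± 0.33 in naive C57BL/6 arrays. The step between the labels exceeded the spread, and the steps within a label did not pass the test. Stroke minus naive was 0.39 ± 0.14 under the knockout label (0.10 to 0.69; limma, adjusted p = 0.365), although those groups did not overlap, and 0.26 ± 0.14 in C57BL/6 (-0.03 to 0.56; limma, adjusted p = 0.347), where they did. Averaged over both labels, Tnf differed by 0.33 ± 0.10 between stroke and naive (0.12 to 0.53; limma, adjusted p = 0.0857). With 1 array left out at a time it ranged from 0.28 to 0.40 (limma, adjusted p from 0.0225 to 0.192) and passed in 2 of 16 fits, those without naive C57BL/6 array 2 (0.40, limma, adjusted p = 0.0225) or C57BL/6 stroke array 2 (0.38, limma, adjusted p = 0.0488). Of 6 other settings it passed in 1, without the third of genes of lowest mean (limma, adjusted p = 0.0498). The stroke changes differed by 0.13 ± 0.20 between the labels (-0.28 to 0.54; limma, adjusted p = 0.896).

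Lta and Ltb, the lymphotoxin genes on either side of Tnf, did not pass between the labels. Lta averaged 4.77 ± 0.16 in stroke arrays labelled TNF knockout and 4.54 ± 0.21 in C57BL/6 stroke arrays (0.23 ± 0.11; 0.00 to 0.45; limma, adjusted p = 0.439). In naive mice it averaged 4.62 ± 0.14 with the knockout label and 4.69 ± 0.12 in C57BL/6 (-0.08 ± 0.11; limma, adjusted p = 0.761). Lta encodes a soluble ligand of both TNF receptors. Ltb, whose product anchors lymphotoxin to the cell membrane, averaged 5.48 ± 0.06 in stroke arrays labelled TNF knockout and 5.60 ± 0.10 in C57BL/6 stroke arrays (-0.12 ± 0.08; limma, adjusted p = 0.634). In naive mice Ltb averaged 5.46 ± 0.17 with the knockout label and 5.49 ± 0.06 in C57BL/6 (-0.04 ± 0.08; limma, adjusted p = 0.853). For both genes the groups overlapped in each of these comparisons. Neither passed for stroke against naive: Lta differed by 0.15 under the knockout label and -0.15 in C57BL/6, and Ltb by 0.03 and 0.11. Lymphocytes are their usual source, and the mean over 10 markers of T, B and NK lymphocytes was 4.18 to 4.28 in stroke and 4.10 to 4.26 in naive arrays labelled TNF knockout, and 4.17 to 4.34 in stroke and 4.17 to 4.30 in naive C57BL/6 arrays. In that marker list 0 of 10 genes passed in any of the 4 comparisons of groups (limma). These marker means lay below the array medians, and whether the markers stood above background cannot be read from the values.

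No other tested gene within 6 places of Tnf, or in the list of its class III neighbours, passed between the labels. H2-D1 and H2-Q1, 5 and 6 places from Tnf, were not tested. Genes farther along chromosome 17 are not covered here. Of the 11 tested genes in the list of Tnf and its neighbours in the class III region, 1 was higher under the knockout label after stroke and 1 in naive mice, and each time that gene was Tnf. The list's median difference was -0.01 after stroke and -0.07 in naive mice, beside -0.01 for all genes in each comparison (-0.008 and -0.005). Aif1, which encodes a calcium-binding protein of microglia and macrophages, differed by -0.17 ± 0.08 in both (limma, adjusted p = 0.461 after stroke and 0.333 in naive mice). Nfkbil1, the next tested gene beyond Lta, differed by -0.10 after stroke and -0.14 in naive mice.

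**Figure D2:**
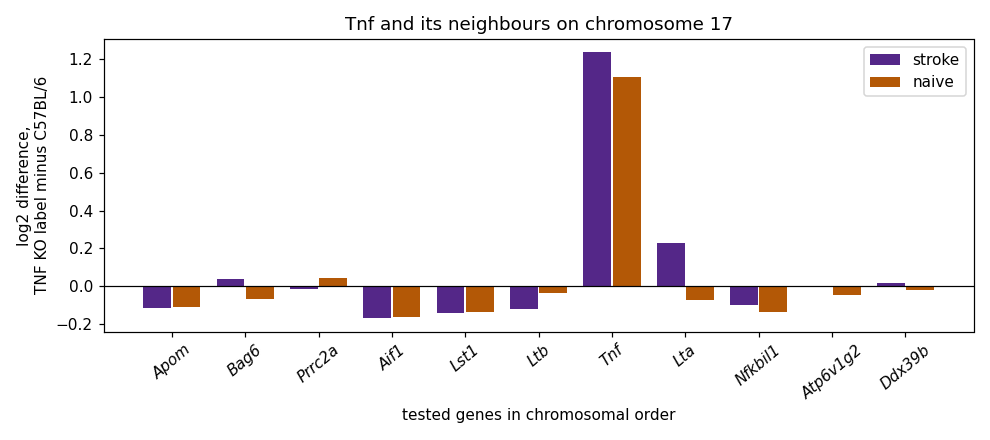
Bars give the log2 difference between arrays labelled TNF knockout and C57BL/6 arrays, after stroke (purple) and in naive mice (orange), for the tested genes within 6 places of Tnf in RefSeq order. Tnf stands at 1.24 and 1.11, and the neighbours lie between -0.17 and 0.23.

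Tnfrsf1a, the gene of the main receptor for soluble TNF, rose after stroke under both labels. Under the knockout label the stroke arrays stood at 7.08, 7.09, 7.17 and 7.18, against 6.41, 6.49, 6.53 and 6.74 in naive arrays. In C57BL/6 mice the stroke arrays stood at 6.97, 7.17, 7.25 and 7.29, against 6.28, 6.63, 6.68 and 6.80 in naive arrays. The 4 stroke arrays lay above the 4 naive arrays in both. The change was 0.59 ± 0.10 under the knockout label (0.37 to 0.80; 1.5-fold; limma, adjusted p = 0.00689) and 0.57 ± 0.10 in C57BL/6 (0.36 to 0.79; 1.49-fold; limma, adjusted p = 0.00715). It was the only member called under the knockout label, 1 of 10, where 0.537% of all genes rose. Tnfrsf1a kept its call in all 16 fits without 1 array, in either genotype, but in C57BL/6 not when those groups alone entered the fit (limma, adjusted p = 0.0523). The changes under the labels differed by 0.02 ± 0.15 (-0.29 to 0.32; limma, adjusted p = 0.99). Between the labels Tnfrsf1a differed by -0.04 ± 0.10 after stroke (limma, adjusted p = 0.924) and -0.06 ± 0.10 in naive mice (limma, adjusted p = 0.821).

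The stroke change of Tnfrsf1a was found within both prefixes. Under the knockout label the stroke change of Tnfrsf1a was 0.49 within KL76 and 0.74 within KL82, each against a lone array on one side. With the prefix as a term it was 0.62 ± 0.09 (limma, adjusted p = 0.0133). For Tnf these values were 0.39 within KL76, 0.24 within KL82 and 0.32 ± 0.12 with the prefix as a term (limma, adjusted p = 0.409). KL82 minus KL76 was 0.15 ± 0.12 for Tnf (limma, adjusted p = 0.635), and for this prefix difference 0 genes passed over the whole table (limma; 12.4% of all genes had an unadjusted p under 0.05).

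Tnfrsf1b, the gene of the receptor that membrane TNF engages, did not pass in any comparison. It averaged 5.55 ± 0.22 in stroke and 5.50 ± 0.05 in naive arrays labelled TNF knockout, and 5.82 ± 0.21 in stroke and 5.55 ± 0.10 in naive C57BL/6 arrays. The stroke change was 0.05 ± 0.11 under the knockout label (-0.18 to 0.27; limma, adjusted p = 0.969) and 0.28 ± 0.11 in C57BL/6 (0.05 to 0.50; limma, adjusted p = 0.198). In C57BL/6 the stroke arrays ran from 5.61 to 6.04 and the naive arrays from 5.44 to 5.67, so the groups overlapped. After stroke the knockout label lay 0.28 ± 0.11 below C57BL/6 (limma, adjusted p = 0.327), and the stroke changes differed by -0.23 ± 0.15 (-0.55 to 0.09; limma, adjusted p = 0.743).

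Tnfrsf12a, the TWEAK receptor gene, stood at 6.50, 6.63, 6.64 and 6.86 in stroke arrays and at 6.32, 6.36, 6.46 and 6.47 in naive arrays labelled TNF knockout. In C57BL/6 it stood at 6.15, 6.50, 6.59 and 6.62 in stroke arrays and 6.47, 6.53, 6.61 and 6.70 in naive arrays. The groups did not overlap under the knockout label and did in C57BL/6. The change was 0.26 ± 0.10 under the knockout label (0.04 to 0.47; limma, adjusted p = 0.455) and -0.11 ± 0.10 in C57BL/6 (-0.32 to 0.10; limma, adjusted p = 0.607). The difference of these changes was 0.37 ± 0.14 (0.07 to 0.67), with an unadjusted p = 0.0181 and, in limma over all genes, adjusted p = 0.593. For that difference 0 of 10 members and 0 genes in all passed (0.0% called; limma), and 2 of 10 members and 7.42% of all genes had an unadjusted p under 0.05.

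Adam17, the gene of the enzyme that releases TNF and sheds both its receptors, stood at 7.30, 7.37, 7.41 and 7.57 in C57BL/6 stroke arrays and at 6.94, 7.06, 7.13 and 7.16 in naive C57BL/6 arrays. These groups did not overlap, and the gene rose by 0.34 ± 0.09 (0.16 to 0.52; 1.27-fold; limma, adjusted p = 0.0491). With Tnfrsf1a this made 2 of 10 members that rose in C57BL/6, where 1.34% of all genes did. The Adam17 call lay at the threshold: with 1 array left out at a time it held in 2 of 16 fits (limma, adjusted p from 0.0302 to 0.134), those without stroke array 1 of either genotype. It was lost as well after quantile normalization (limma, adjusted p = 0.062) and with the compared groups alone (limma, adjusted p = 0.132).

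Under the knockout label Adam17 stood at 7.09, 7.35, 7.38 and 7.42 in stroke arrays and at 7.22, 7.28, 7.31 and 7.36 in naive arrays. Those groups overlapped (0.02 ± 0.09; -0.16 to 0.20; limma, adjusted p = 0.991). All 4 naive arrays with the knockout label lay above the 4 naive C57BL/6 arrays (0.22 ± 0.09; limma, adjusted p = 0.211). The difference of the stroke changes was -0.32 ± 0.12 (-0.58 to -0.07; unadjusted p = 0.0154; limma, adjusted p = 0.583). A change in C57BL/6 alone is thus not shown by this test.

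No adaptor gene passed the test in any comparison. Tradd, which encodes the first adaptor on the death domain of the Tnfrsf1a product, averaged 6.10 ± 0.08 in stroke arrays labelled TNF knockout and 6.37 ± 0.14 in C57BL/6 stroke arrays. Those groups did not overlap, with 6.21 as the highest value under the knockout label and 6.23 as the lowest in C57BL/6, but the difference of -0.26 ± 0.10 did not pass (-0.48 to -0.04; limma, adjusted p = 0.342). In naive mice Tradd averaged 6.29 ± 0.21 with the knockout label and 6.26 ± 0.15 in C57BL/6. Stroke minus naive was -0.19 ± 0.10 under the knockout label and 0.11 ± 0.10 in C57BL/6 (limma, adjusted p = 0.694 and 0.65).

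Traf2, the ubiquitin ligase adaptor of both TNF receptors, averaged 6.69 ± 0.06 in stroke and 6.63 ± 0.10 in naive arrays labelled TNF knockout, and 6.65 ± 0.21 in stroke and 6.69 ± 0.13 in naive C57BL/6 arrays. Its stroke change was 0.06 ± 0.10 under the knockout label (-0.14 to 0.26) and -0.04 ± 0.10 in C57BL/6 (-0.24 to 0.16). Traf1, its partner and itself an NF-kB target, averaged 3.92 ± 0.19 in stroke and 3.86 ± 0.19 in naive arrays labelled TNF knockout, and 3.85 ± 0.14 in stroke and 3.85 ± 0.10 in naive C57BL/6 arrays. Its stroke change was 0.06 ± 0.11 under the knockout label (-0.16 to 0.29) and 0.01 ± 0.11 in C57BL/6 (-0.22 to 0.23). All Traf1 values, from 3.62 to 4.14, lay below the array medians, as did all values of Lta (4.29 to 4.95) and Ltb (5.23 to 5.70). Whether they stood above background cannot be read from these values either.

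**Figure D3:**
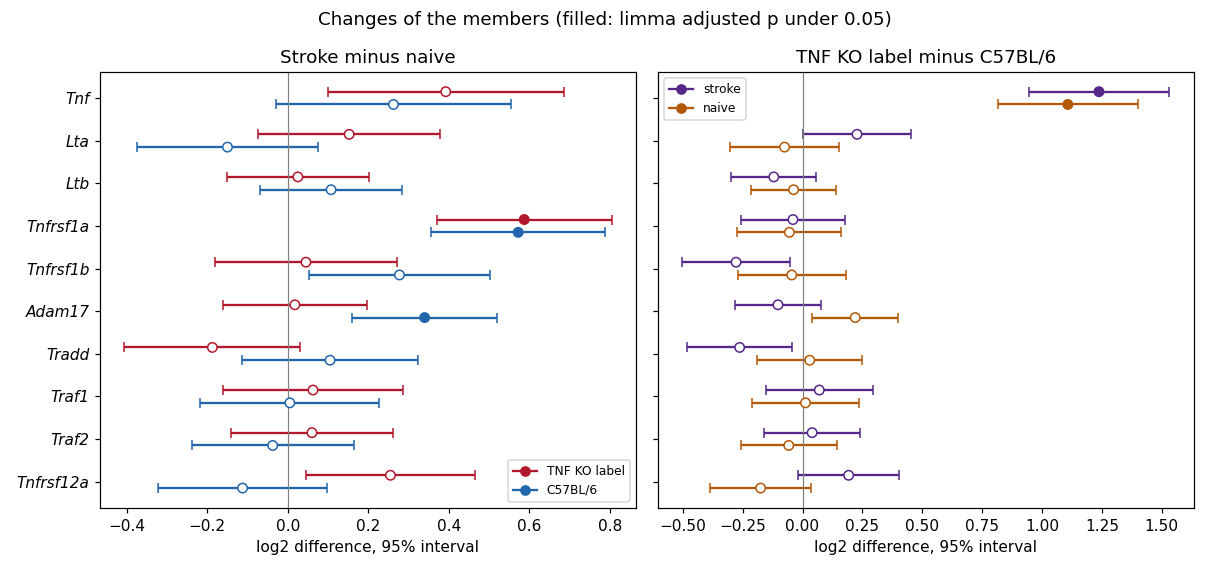
Points give the log2 difference of each member and lines its 95% interval from limma, stroke minus naive at the left and TNF knockout label minus C57BL/6 at the right; filled points have an adjusted p under 0.05. Tnfrsf1a is filled at 0.59 and 0.57, Adam17 in C57BL/6 at 0.34, and Tnf between the labels at 1.24 and 1.11.

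Counted by groups that do not overlap, 3 of 10 members (Tnf, Tnfrsf1a and Tnfrsf12a) were higher after stroke under the knockout label, where 2.8% of all genes were. In C57BL/6 2 of 10 were (Tnfrsf1a and Adam17), where 5.03% of all genes were. Between the labels 2 of 10 were higher in naive mice (Tnf and Adam17; 4.5% of all genes), and after stroke 1 was higher (Tnf; 3.04%) and 1 lower (Tradd; 2.76%). The median change of the 10 members was 0.06 under the knockout label and 0.11 in C57BL/6 after stroke, beside 0.00 and -0.01 for all genes. Averaged over both labels, 1 of 10 members rose after stroke, Tnfrsf1a by 0.58 ± 0.07 (limma, adjusted p = 7.61e-05), where 1.78% of all genes did. Averaged over stroke and naive mice, 1 of 10 was higher under the knockout label, Tnf by 1.17 ± 0.10 (limma, adjusted p = 9.98e-07), where 1.35% of all genes were.

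Within each state and each label, the lists of partner genes around the members held no calls (limma), and the list of targets held some. In the TNF receptor signalling complex 0 of 16 tested genes passed in each of the 4 comparisons (limma). Its median stroke change was 0.02 under the knockout label and 0.06 in C57BL/6. Cflar, which encodes an inhibitor of caspase-8, differed by 0.32 ± 0.09 in C57BL/6 (limma, adjusted p = 0.0879), and Birc2, a ubiquitin ligase gene of the complex, by 0.26 ± 0.10 under the knockout label (limma, adjusted p = 0.443). Of the kinases downstream of the receptors 0 of 14 passed in each comparison, with median stroke changes of -0.07 under the knockout label and 0.06 in C57BL/6. Of the other genes for shedding and release of TNF 0 of 6 passed, with Rhbdf2, a gene for the partner that carries the protease to the surface, at 0.20 ± 0.10 under the knockout label and 0.11 ± 0.10 in C57BL/6 (limma, adjusted p = 0.641 and 0.625).

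Other ligands of the family had 0 of 13 genes past the threshold in each of the 4 comparisons of groups, and other receptors 0 of 22 (limma). Averaged over stroke and naive mice, 522 of 19938 genes were called between the labels, 270 of them higher under the knockout label. In that average 1 of 13 ligand genes and 2 of 22 receptor genes were lower under the knockout label. These were Tnfsf14, the gene of the ligand LIGHT (-0.24 ± 0.06; limma, adjusted p = 0.0437), Tnfrsf13b, the gene of a TNF family receptor found on B cells (-0.23 ± 0.06; limma, adjusted p = 0.038), and Tnfrsf21, the gene of death receptor 6 (-0.23 ± 0.06; limma, adjusted p = 0.038). With 1 array left out at a time, the calls held in 4 of 16 fits for Tnfsf14, 5 for Tnfrsf13b and 4 for Tnfrsf21. Quantile normalization ended those of Tnfsf14 (limma, adjusted p = 0.106) and Tnfrsf13b (limma, adjusted p = 0.0835). In the same average 2 of 13 ligand genes (median -0.066) and 4 of 22 receptor genes (median -0.076) lay above 0. The median of all genes was -0.009. In naive mice alone the medians were -0.175 for the ligands and -0.111 for the receptors, beside -0.005 for all genes. Fas, which encodes a death receptor, differed after stroke by 0.28 ± 0.13 under the knockout label and 0.27 ± 0.13 in C57BL/6 (limma, adjusted p = 0.577 and 0.298). Ltbr, the lymphotoxin receptor gene, differed by 0.20 ± 0.10 under the knockout label and 0.21 ± 0.10 in C57BL/6 (limma, adjusted p = 0.637 and 0.312). After stroke alone, Tnfrsf21 lay 0.34 ± 0.08 lower under the knockout label (limma, adjusted p = 0.0842).

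Genes that TNF is known to induce rose in part after stroke, and other cytokines induce many of them too. Their list was also chosen with earlier results of these data known. Under the knockout label 7 of 21 rose and 0 fell (median 0.35), and in C57BL/6 3 of 21 rose and 0 fell (median 0.25), beside 0.537% and 1.34% of all genes that rose. Cxcl10, the gene of a T cell chemokine, rose by 3.19 ± 0.28 under the knockout label and 2.39 ± 0.28 in C57BL/6 (limma, adjusted p = 2.55e-06 and 9.5e-05). Ccl2, the gene of a monocyte chemokine, rose by 1.11 ± 0.15 under the knockout label and 0.62 ± 0.15 in C57BL/6 (limma, adjusted p = 0.000571 and 0.0484). With 1 array left out at a time, the C57BL/6 call of Ccl2 held in 3 of 16 fits, and it was lost with the compared groups alone (limma, adjusted p = 0.111). Ptgs2, the gene of an inducible prostaglandin synthase, rose by 0.72 ± 0.14 under the knockout label (limma, adjusted p = 0.0134), and missed the threshold with the prefix as a term (limma, adjusted p = 0.0539). With 1 array left out at a time, that call held in 12 of 16 fits. In C57BL/6 Ptgs2 differed by 0.45 ± 0.14 (limma, adjusted p = 0.105). Over both labels Ptgs2 rose by an average of 0.58 ± 0.10 (limma, adjusted p = 0.00148). Averaged over both labels, 10 of 21 rose and 0 fell (median 0.29). None of the 21 passed for the difference of the stroke changes (limma). In naive mice Junb, a gene of the AP-1 factor, was 0.52 ± 0.11 lower under the knockout label (limma, adjusted p = 0.0337; passed in 10 of 16 fits without 1 array, and lost after quantile normalization at 0.0514). In that comparison 77 of 19938 genes were called, 44 of them higher under the knockout label. After stroke Junb averaged 5.92 ± 0.13 under the knockout label and 5.89 ± 0.22 in C57BL/6. Its stroke change was 0.31 ± 0.11 under the knockout label and -0.24 ± 0.11 in C57BL/6 (limma, adjusted p = 0.329 and 0.247). These changes differed by 0.55 ± 0.15 (limma, adjusted p = 0.434).

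Zfp36 belongs to this list and to that of genes acting on Tnf mRNA: it encodes tristetraprolin, which binds AU-rich elements in Tnf mRNA and speeds its decay. It rose by 0.83 ± 0.12 under the knockout label (limma, adjusted p = 0.000663) and 0.57 ± 0.12 in C57BL/6 (limma, adjusted p = 0.0159; passed in 12 of 16 fits without 1 array, and lost without naive array 1 or 2 or stroke array 2 or 3 of C57BL/6). With the compared groups alone the C57BL/6 call of Zfp36 was lost (limma, adjusted p = 0.0801). It was the 1 of 10 tested genes of that second list that rose under each label, and 0 fell. Zc3h12a, the gene of the RNase regnase-1, differed by 0.27 ± 0.11 under the knockout label (limma, adjusted p = 0.449). In C57BL/6 Zc3h12a averaged 5.10 ± 0.27 in stroke and 5.04 ± 0.07 in naive arrays.

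**Figure D4:**
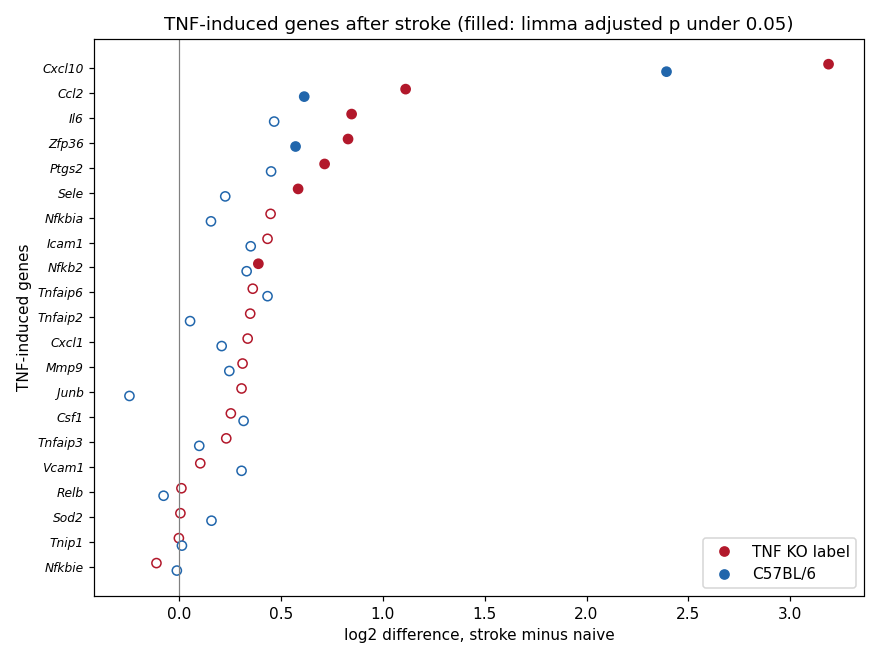
Points give the log2 difference, stroke minus naive, of the 21 tested TNF-induced genes under the TNF knockout label (red) and in C57BL/6 (blue); filled points have an adjusted p under 0.05. Cxcl10 lies farthest to the right at 3.19 and 2.39, and 7 points are filled under the knockout label against 3 in C57BL/6.

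Whole brain was measured, so a change in the number of cells of a type and a change in RNA per cell cannot be told apart. Markers of activated microglia and macrophages, cells that make TNF and carry its receptors, rose in part after stroke. The mean over 11 of them was 6.35 to 6.49 in stroke and 6.09 to 6.21 in naive arrays labelled TNF knockout, and 6.54 to 6.69 in stroke and 6.22 to 6.31 in naive C57BL/6 arrays. Of the 11, 2 rose under each label: Cd68 by 0.60 ± 0.08 under the knockout label and 1.09 ± 0.08 in C57BL/6 (limma, adjusted p = 0.000372 and 1.94e-07), and Msr1 by 0.86 ± 0.14 and 1.19 ± 0.14. Between the labels after stroke, 1 of 11 was lower under the knockout label, Cd68 by -0.38 ± 0.08 (limma, adjusted p = 0.034; passed in 10 of 16 fits without 1 array, and lost with the compared groups alone at 0.132). In that comparison 87 of 19938 genes were called, 33 of them higher under the knockout label. Averaged over both labels 3 of 11 rose, the third being Cd14 by 0.64 ± 0.14 (limma, adjusted p = 0.0115). The part of these cells in the change of Tnfrsf1a was not tested. Group means of Msr1 (3.385 to 4.58) lay below the array medians, and whether they stood above background cannot be read from these values.

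Some astrocyte markers rose after stroke as well. Under the knockout label 3 of 10 rose, among them Vim by 0.75 ± 0.09 and Gfap by 0.83 ± 0.15, both intermediate filament genes. The third was Osmr, a cytokine receptor gene, by 1.02. The median of the 10 was -0.04, with 5 of 10 above 0, and the glutamate transporter gene Slc1a2 stood at -0.20 ± 0.10 (limma, adjusted p = 0.638). In C57BL/6 4 of 10 rose (median 0.12, 8 of 10 above 0), with Vim at 0.78 ± 0.09 and Gfap at 0.72 ± 0.15. The Gfap call under the knockout label was lost with the prefix as a term (limma, adjusted p = 0.0758), and that in C57BL/6 without naive array 1 or stroke array 2 or 3 of C57BL/6. The mean over the astrocyte markers was 8.90 to 8.95 in stroke and 8.67 to 8.83 in naive arrays labelled TNF knockout, and 8.83 to 9.17 in stroke and 8.61 to 8.71 in naive C57BL/6 arrays. Their part in the change of Tnfrsf1a was not tested.

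The other marker lists held few calls. After stroke 128 of 19938 genes were called under the knockout label, 107 of them higher, and 334 in C57BL/6, 267 of them higher. Of 9 resident microglia markers 1 fell under the knockout label, and in C57BL/6 1 rose and 1 fell. These were Gpr34 (-0.49 ± 0.11 under the knockout label; passed in 3 of 16 fits without 1 array), Fcrls (0.90 ± 0.17 in C57BL/6) and Siglech (-0.48 ± 0.11 in C57BL/6; 11 of 16 fits, and lost with the compared groups alone, limma adjusted p = 0.114). Under the knockout label Fcrls differed by 0.46 ± 0.17 and Siglech by -0.46 ± 0.11 (limma, adjusted p = 0.369 and 0.0742). Averaged over both labels Fcrls rose by 0.68 ± 0.12 and Siglech fell by -0.47 ± 0.08 (limma, adjusted p = 0.00209 and 0.00168), each in all 16 fits without 1 array. Markers of neutrophils and monocytes had 0 of 11 past the threshold under either label alone (limma), with Clec4d at 0.76 ± 0.21 under the knockout label and 0.74 ± 0.21 in C57BL/6. Averaged over both labels 2 of 11 rose, Clec4d by 0.75 ± 0.15 (limma, adjusted p = 0.00817) and Cxcr2, a neutrophil chemokine receptor gene, by 0.71 ± 0.15 (limma, adjusted p = 0.0147). Both calls held in all 16 fits without 1 array, and their part in the change of Tnfrsf1a was not tested. The group means of Clec4d (3.515 to 4.62) and Cxcr2 (3.09 to 3.895) lay below the array medians. Whether these 2 genes stood above background cannot be read from the deposited values. The mean of the 11 was 4.13 to 4.41 in stroke and 3.97 to 3.996 in naive arrays labelled TNF knockout, and 4.06 to 4.45 in stroke and 3.997 to 4.22 in naive C57BL/6 arrays. Markers of endothelial cells (9), neurons (10) and oligodendrocytes (7) had 0 calls after stroke under either label alone (limma). Averaged over both labels 1 of them fell, the neuron gene Tubb3 at -0.27 ± 0.06 (limma, adjusted p = 0.0157). In that average 559 of 19938 genes were called, 354 of them higher after stroke.

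Between the labels after stroke, the endothelial tight junction gene Cldn5 was lower under the knockout label by -0.54 ± 0.11 (limma, adjusted p = 0.0396; 5 of 16 fits without 1 array, and lost with the compared groups alone at 0.0644). The myelin enzyme gene Cnp was lower by -0.46 ± 0.08 (limma, adjusted p = 0.00503). In this comparison 0 of 9 endothelial markers (median -0.222) and 1 of 9 resident microglia markers (median -0.208) lay above 0. Among neutrophil and monocyte markers 7 of 11 did (median 0.04), and the median of all genes was -0.008. For the difference of stroke changes 0 of 9 endothelial markers lay above 0 (median -0.285), and 0 passed (limma). In naive mice alone 0 genes of the 8 marker lists passed between the labels (limma). Averaged over stroke and naive mice, 522 of 19938 genes were called between the labels, 270 of them higher under the knockout label. In that average 3 of 7 oligodendrocyte markers were lower under the knockout label, and all 7 had a difference below 0. These were Cnp at -0.37 ± 0.05, Cldn11 at -0.44 ± 0.08 and Mag at -0.27 ± 0.07 (limma, adjusted p = 0.000805, 0.00421 and 0.0424). With 1 array left out at a time Cnp and Cldn11 kept their calls in all 16 fits and Mag in 3. In the same average Cldn5 was lower by -0.33 ± 0.08 (limma, adjusted p = 0.0342; 6 of 16 fits) and Tyrobp, a microglial adaptor gene, by -0.25 ± 0.07 (limma, adjusted p = 0.0495; 2 of 16 fits). Of the 11 activated microglia markers 0 lay above 0 there. The mean of the oligodendrocyte markers was 9.24 to 9.42 in stroke and 9.41 to 9.46 in naive arrays labelled TNF knockout, and 9.49 to 9.82 in stroke and 9.48 to 9.73 in naive C57BL/6 arrays. These values differ between the genotype labels in the direction opposite to Tnf, and their part in the Tnf difference was not tested.

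The genes whose values followed a member most closely over the 16 arrays are given as a description, since arrays of 1 group share their condition. Closest to Tnf were Glo1, a glyoxalase gene (r = 0.929), Lpl, the lipoprotein lipase gene (r = 0.909), and Sfxn3, a mitochondrial carrier gene (r = 0.908). Glo1 lies on the same chromosome as Tnf, outside the neighbours described above. Glo1 averaged 9.87 ± 0.07 in stroke and 9.85 ± 0.08 in naive arrays labelled TNF knockout, and 8.92 ± 0.10 in stroke and 8.83 ± 0.20 in naive C57BL/6 arrays, so like Tnf it stood higher under the knockout label in both states.

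Closest to Tnfrsf1a were C5ar1, the complement C5a receptor gene (r = 0.936), the chemokine gene Ccl12 (r = 0.931) and the tubulin gene Tubb6 (r = 0.92). C5ar1 averaged 6.00 ± 0.14 in stroke and 4.83 ± 0.27 in naive arrays labelled TNF knockout, and 6.21 ± 0.36 in stroke and 4.86 ± 0.29 in naive C57BL/6 arrays. Closest to Tnfrsf12a were Csrnp1, Tas2r102 and Rfx6, with lower values of r, from 0.776 to 0.792. The group means of Tas2r102 (2.965 to 3.22) and Rfx6 (3.435 to 3.675) lay below the array medians. Whether these 2 genes stood above background cannot be read from these values.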

How the data were processed

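The data are 16 one-colour arrays of mouse whole-brain RNA. The authors' deposited values are log2 probe set summaries, already normalised between arrays, as their nearly equal medians show. Partek, GCOS, RMA and GCRMA appear in the submitters' processing notes, with neither versions nor roles. No detection p-values, scan dates or scanner intensities were used here, and the array number sets the precision.

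Of 28944 probe sets, 21789 had 1 gene symbol in GEO's platform annotation, 1621 several and 5534 none. With the probe set of highest mean for the 999 genes that had several, 19938 genes entered the tests, without a filter on dim ones. All 16 arrays entered 1 fit with a mean for each of the 4 groups (limma 3.58.1, lmFit and eBayes, R 4.3.3), with Benjamini-Hochberg adjustment over all genes of a contrast, two-sided. Scripts were tested on simulated data. Tables and figures were made with matplotlib 3.10.9, numpy 2.4.6 and pandas 2.3.3 under Python 3.11.15. Matches were sought in 250 bases before each RefSeq start (GRCm38.p6).

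The members, the 8 gene lists and the 8 marker lists were chosen with earlier results of these data known. The text names all members, from each list up to 4 tested genes of smallest p per contrast, and the 3 genes most correlated with Tnf, Tnfrsf1a and Tnfrsf12a.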

Additional observations from a re-analysis of the deposited data

Results flagged for a closer look

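Of the 40 sets of 4 arrays (10 members in 4 groups), 1 held an array far from the others. In C57BL/6 stroke arrays Tnf stood at 5.28 in array 2 and at 5.64 to 5.68 in the other 3, so that the gap took up 0.9 of the range, above Dixon's 95% critical value for 4 samples. Chance alone gives such a gap in about 1 of 20 sets. Without that array Tnf differed between stroke and naive C57BL/6 mice by 0.36 (limma, adjusted p = 0.239), against 0.26 with it (limma, adjusted p = 0.347). Leaving out each of the 16 arrays in turn gave 0.16 to 0.40 (limma, adjusted p from 0.149 to 0.636), with the lowest value, 0.16, without naive C57BL/6 array 1 and the highest without naive C57BL/6 array 2.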

How the results depend on the processing

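The rise of Tnfrsf1a under the knockout label and the higher Tnf under that label passed in every setting run. The number of members past the threshold moved in 2 comparisons. For stroke in C57BL/6 (2 members) it was 1 after quantile normalization, 0 with only the groups compared, and 1 to 2 without 1 array. For stroke averaged over the labels (1 member) it was 2 without the third of genes of lowest mean, and 1 to 2 without 1 array. The replicate block kept all these counts; under it Tnfrsf1a rose by 0.59 under the knockout label and 0.57 in C57BL/6. Replicate numbers were not used to pair the samples in the main fit. Of 24 same-numbered pairs, 10 had a correlation of deviations over 0.1 (-0.075 to 0.34). Pairs with different numbers were not compared, so these values cannot decide whether the numbers pair the samples. The block moved the genes called to 559 for stroke in C57BL/6, 140 for stroke under the knockout label, 141 between the labels in naive mice, 120 between them after stroke and 1 for the difference of stroke changes. Values near 0, none past the threshold, changed sign. After quantile normalization these were Ltb for stroke under the knockout label (-0.002), Lta (0.0152), Ltb (0.026) and Tnfrsf1b (0.0177) between the labels in naive mice, and Traf1 for the difference of stroke changes (-0.0178). With median centring they were Adam17 for stroke under the knockout label (-0.0025) and Tnfrsf1a for the difference (-0.0175). With the prefix as a term they were Ltb (-0.0167) and Adam17 (-0.0617) for stroke under the knockout label. Without 1 array the ranges that crossed 0 were, for stroke in C57BL/6 Traf1 -0.055 to 0.055, Traf2 -0.0992 to 0.0617; for stroke under the knockout label Ltb -0.05 to 0.08, Tnfrsf1b -0.01 to 0.15, Adam17 -0.0192 to 0.0908, Traf1 -0.0167 to 0.1425. They were also, between the labels in naive mice Ltb -0.0925 to 0.0375, Tnfrsf1a -0.1608 to 0.0125, Tradd -0.0633 to 0.1, Traf1 -0.0583 to 0.0917; between the labels after stroke Traf1 -0.0033 to 0.15, Traf2 -0.0592 to 0.1008; for the difference of stroke changes Tnf -0.0083 to 0.2283, Tnfrsf1a -0.0525 to 0.1208, Traf1 -0.0217 to 0.1375, Traf2 -0.0017 to 0.1592. The cause of these changes was not tested. Counts of genes called over the table ranged, over all settings, from 98 to 639 for stroke in C57BL/6 (334 as reported; 107 without C57BL/6 stroke array 3, 639 without C57BL/6 stroke array 1), 69 to 145 for stroke under the knockout label (128), 23 to 185 between the labels in naive mice (77), 46 to 164 between them after stroke (87), 0 to 4 for the difference of stroke changes (0), 369 to 768 for stroke averaged over the labels (559) and 252 to 759 for the labels averaged (522). No member has a further probe set, so that alternative gave no value, and no background correction could be varied on these summaries.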
